A study of Equus caballus with 32 samples.

Results

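The subunits of the mitochondrial respiratory chain and of ATP synthase were followed in horse blood as 50 genes, chosen because the gene name on the array matched a pattern for NDUF, SDH, UQCR, CYC1, COX4 to COX8 or ATP5 names. They are 50 of the 24518 gene names on the array, and 164 probes carry those names. The pattern found 29 genes of complex I, 3 of complex II, 1 of complex IV (COX4I2) and 17 of complex V, and it found 0 genes of complex III, whose subunits the files list under locus or transcript names. Of the 17 ATP5 names, ATP5S and ATP5SL are not subunits of ATP synthase: their current symbols are DMAC2L and DMAC2, so complex V stands here for 15 subunits and these 2 genes. A further 25 subunits were found under other names, 22 through a RefSeq gene table and 3 through the probe descriptions in the files, and are described beside the 50. They were looked up after the array's names had been seen.

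The blood came from 32 Welsh Pony mares, 1 sample per mare, drawn 30 days after their foals were weaned. In 16 mares weaning was progressive and in 16 it was brutal, and the labels give no further detail of either procedure, no age and no untreated mares. The samples were whole blood stabilised at collection, so every value sums over all blood cells: fewer cells of a type and less RNA per cell cannot be told apart. Each mare gave 1 single-colour Agilent array, and the 32 arrays lay on 4 slides, each of which held 4 progressive and 4 brutal mares.

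The respiratory chain passes electrons from NADH (complex I) or succinate (complex II) through complex III to oxygen at complex IV, and the proton gradient that complexes I, III and IV build drives ATP synthase, complex V. Most subunits are encoded in the nucleus and imported, and a small core of complexes I, III, IV and V is encoded in mitochondrial DNA. In blood, lymphocytes, monocytes and platelets carry working mitochondria, mature red cells have none, and neutrophils rely mainly on glycolysis.

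The following probes carry the results on single genes, and are written 5′ to 3′ as in the files. ATP5D, the delta subunit of the central stalk of ATP synthase, is shown because it was the 1 gene of the 50 under an unadjusted p of 0.05. Its gene was also read by a second probe, listed in the files under a locus name and named ATP5F1D by the RefSeq table. The longest run that both probes share is 5 bases.
ATP5D: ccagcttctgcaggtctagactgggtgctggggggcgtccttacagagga
ATP5F1D: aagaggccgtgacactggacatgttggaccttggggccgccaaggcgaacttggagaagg
ATP5C1, the gamma subunit that turns inside the head, is shown because its probes disagreed. The catalogue probes lie at chr29:25168485-25168544 and chr29:25168425-25168484, minus strand, and the files give no position for the custom probe.
ATP5C1 catalogue probe 1: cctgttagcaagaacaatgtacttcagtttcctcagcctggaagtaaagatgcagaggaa
ATP5C1 catalogue probe 2: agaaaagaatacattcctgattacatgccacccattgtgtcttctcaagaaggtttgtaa
ATP5C1 custom probe: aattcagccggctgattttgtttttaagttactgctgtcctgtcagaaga
NDUFB8 (chr1:28631067-28631126, plus strand) and SDHA (chrUn:284831589-284831852, plus strand) are shown as the genes that followed the other subunits most and least closely over the mares. The SDHA probe covers a genomic stretch longer than itself and so spans an intron.
NDUFB8: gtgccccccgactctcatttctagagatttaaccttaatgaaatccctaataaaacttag
SDHA: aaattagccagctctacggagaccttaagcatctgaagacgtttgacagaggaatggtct
For the 3 genes that encode the same c subunit of the rotor ring, the probes share runs of at most 5 bases, so the 3 sequences are distinct.
ATP5G1: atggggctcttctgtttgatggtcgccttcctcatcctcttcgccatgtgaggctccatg
ATP5G2: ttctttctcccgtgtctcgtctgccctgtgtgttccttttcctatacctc
ATP5G3: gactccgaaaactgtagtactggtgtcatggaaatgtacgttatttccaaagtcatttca
Many genes have several probes that tile 1 stretch, as the pair for SDHC shows, with the 37 shared bases in capitals.
SDHC: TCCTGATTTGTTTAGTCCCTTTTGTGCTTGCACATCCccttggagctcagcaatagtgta
SDHC second probe: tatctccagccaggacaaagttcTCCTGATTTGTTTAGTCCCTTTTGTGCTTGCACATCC
Positions are those of the files, whose headers name the EquCab1 assembly. The files tie each catalogue probe to a transcript, and do not say whether it lies in coding or untranslated sequence.

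Each value is the log2 of a probe's signal less the log2 of its array's 75th percentile, which thus sits at 0, and differences are progressive minus brutal. They were tested with limma over the 14488 gene names whose brightest probe was well above background in 8 or more of a group's 16 mares, with Benjamini-Hochberg adjustment over all of them. The 75th percentile signal of the arrays ran from 381.5 to 646.0 intensity units in progressive mares and from 339.5 to 607.9 in brutal mares, and no spot was saturated. Of the spots left out as outliers, 851 of 2483 lay on the array of progressive mare 16, so results that rest on this array are given with and without it.

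No subunit gene separated the mares by kind of weaning. Of the 50 genes, 49 were tested and 0 passed an adjusted p of 0.05, against a background of 0% of all genes tested. The adjusted p of the 49 ran from 0.990 to 0.9998. At an unadjusted p under 0.05 there was 1 gene, ATP5D, against 2.55% of all genes tested. For each of the 49 genes the range of the 16 progressive mares overlapped that of the 16 brutal mares, and the 95% interval held 0 for 48. These intervals reached at most to a ratio of 0.728 on the low side and 1.26 on the high side, so larger differences than these lay outside every interval. The median standard error (SE) of a difference was 0.093.

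**Figure D1:**
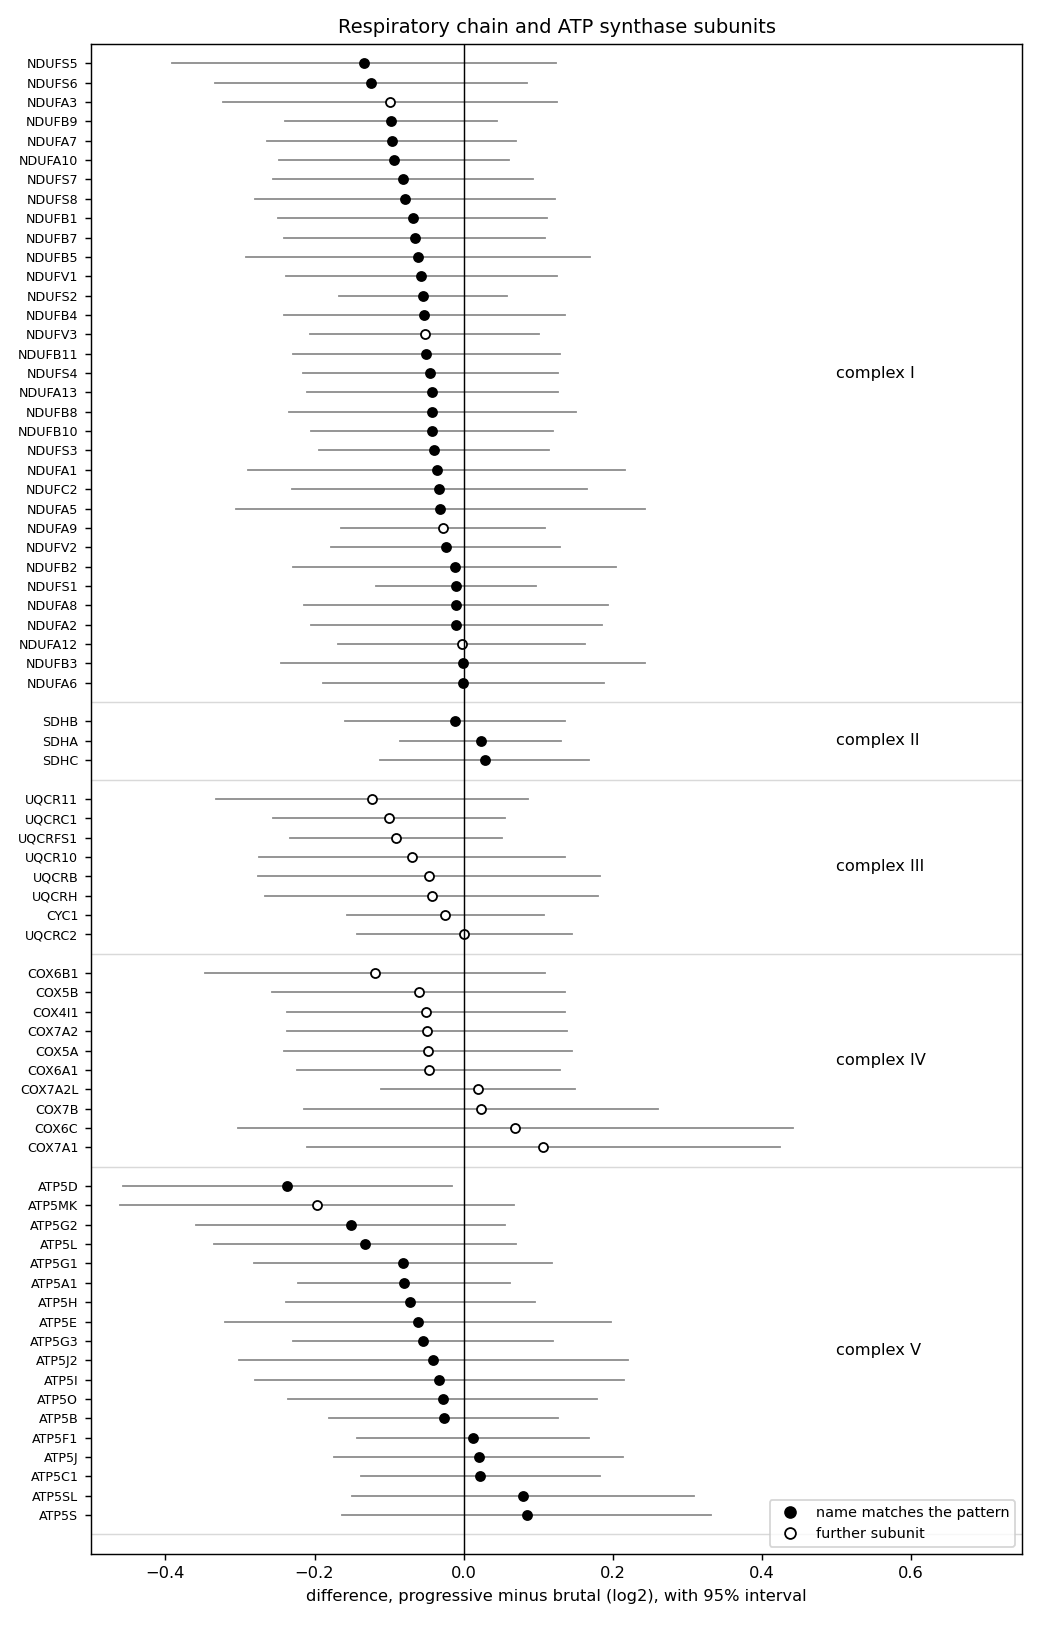
Difference between progressive and brutal mares (progressive minus brutal, log2, horizontal axis) for each tested subunit gene, grouped by complex, with limma's 95% interval as a line (16 mares per group). Filled points are the 49 genes whose names match the pattern and open points the 23 further subunits. The points of complexes I and III lie mostly left of 0, and ATP5D is the 1 gene whose interval leaves out 0.

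The sign of the small differences ran mostly one way in the scaling used here: 42 of the 49 genes were lower after progressive weaning, against 55.3% of all genes tested, and 7 were higher, against 44.7%. The median difference was -0.042, against -0.014 over all genes tested. This direction changed with the scaling and with the arrays used. With quantile normalisation 23 of 49 were lower, with a median of 0.0043, and with the values of the deposited series table it was 27 of 49, with a median of -0.0019. With scores of blood cell markers as covariates it was 24 of 49, with a median of 0.0013. Without progressive mare 16 it was 35 of 49, with a median of -0.017, and with the percentile taken over probes detected on all arrays 35 of 49, with a median of -0.020. On slide 1 alone 15 of 49 were lower, with a median of 0.038. The medians on slides 2, 3 and 4 alone were -0.031, -0.090 and -0.12. Over the 4 slides, 8 genes were lower on each, 21 on 3, 14 on 2 and 6 on 1.

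**Figure D2:**
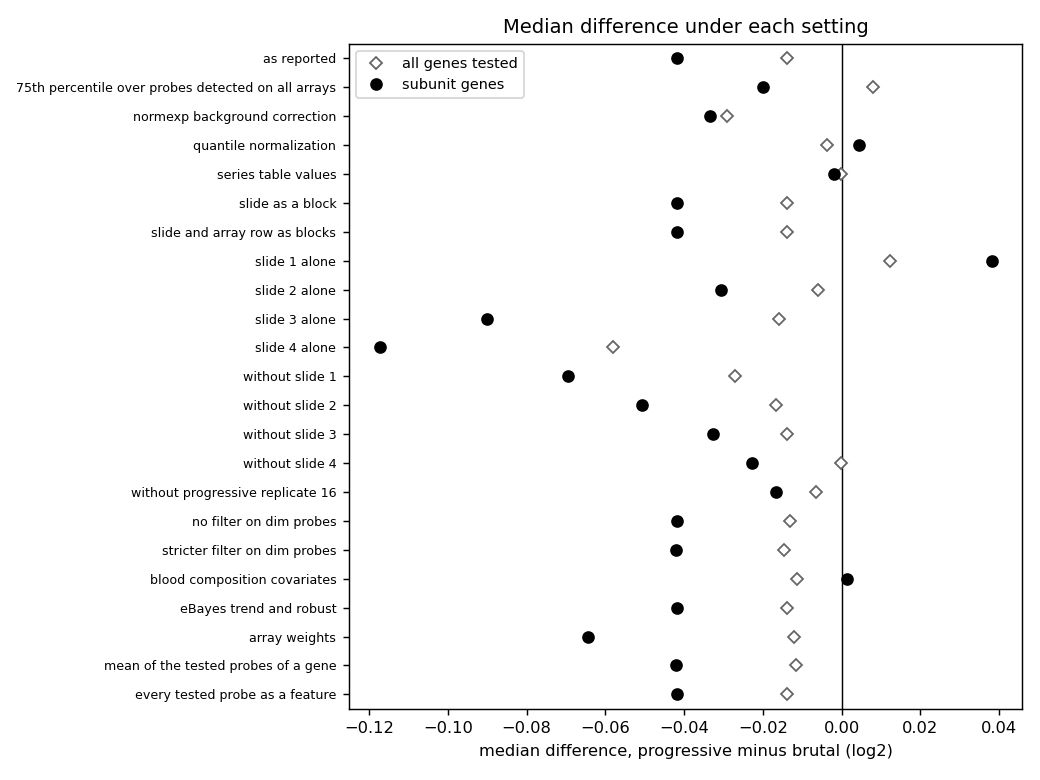
Median difference between progressive and brutal mares (log2, horizontal axis) under each processing setting (rows). Filled points are the medians of the subunit genes and open diamonds those of all genes tested in that setting. The subunit median ran from -0.12 on slide 4 alone to 0.038 on slide 1 alone, and lay near 0 with quantile normalisation, the series table and the composition covariates.

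Complex I, which oxidises NADH, had 29 tested genes, and 29 were lower after progressive weaning, against 55.3% of all genes tested. Over the mares the median Pearson r between 2 of them was 0.75, so the 29 signs are not separate observations. The differences ran from -0.13 to -0.00019, with a median of -0.045. Under quantile normalisation and the series table the median was -0.0035 and -0.0029, and on slide 1 alone it was 0.025. The 3 genes of complex I with the smallest p encode accessory subunits. NDUFB9, in the membrane arm, ran from 3.85 to 4.65 with a median of 4.25 in progressive mares, and from 4.04 to 4.66 with a median of 4.34 in brutal mares. Its difference was -0.097 (SE 0.070, limma adjusted p = 0.990). The 2 sets of mares covered nearly the same range, and NDUFB9 was lower on 3 of 4 slides. NDUFA10, also in the membrane arm, ran from 2.54 to 3.43 (median 2.84) in progressive mares and from 2.61 to 3.40 (median 3.01) in brutal mares. The difference of NDUFA10 was -0.093 with an SE of 0.076. Its other tested probe, which shares no stretch of 15 bases with this one, gave -0.016 (SE 0.072). The place of NDUFA10 among these genes thus rests on the probe chosen. NDUFS6, a zinc-binding subunit, had medians of 3.65 in progressive and 3.76 in brutal mares and a difference of -0.12 (SE 0.10). For both genes the sign was the other way on slide 1 alone, at 0.094 for NDUFA10 and 0.019 for NDUFS6.

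The genes of complex I also differed in how much they varied from mare to mare. NDUFS1, the large iron-sulphur subunit, had the smallest standard deviation (SD) of the complex over the 32 mares, 0.13. It ran from 1.32 to 1.78 (median 1.43) in progressive mares and from 1.20 to 1.67 (median 1.51) in brutal mares. The difference of NDUFS1 was -0.010 (SE 0.053), and its interval from -0.12 to 0.097 was among the narrowest. NDUFA5, an accessory subunit of the matrix arm, had the largest SD, 0.38. It ran from 1.58 to 3.09 (median 1.96) in progressive mares and from 1.13 to 2.69 (median 2.08) in brutal mares, a difference of -0.031 (SE 0.13). NDUFV2, an iron-sulphur subunit next to the NADH site, ran from 3.90 to 4.67 (median 4.10) in progressive mares and from 3.91 to 4.60 (median 4.15) in brutal mares. NDUFB8, in the membrane arm, ran from 4.24 to 5.32 (median 4.64) in progressive mares and from 4.33 to 5.18 (median 4.66) in brutal mares. The differences of NDUFV2 and NDUFB8 were -0.024 (SE 0.075) and -0.042 (SE 0.095), and each had the other sign under quantile normalisation.

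Complex II, succinate dehydrogenase, also works in the tricarboxylic acid cycle and has no subunit in mitochondrial DNA. Its 3 tested genes stayed within 0.03 of 0. SDHA, the flavoprotein that oxidises succinate, ran from 1.55 to 1.91 (median 1.67) in progressive mares and from 1.37 to 1.90 (median 1.69) in brutal mares, a difference of 0.023 (SE 0.053). SDHB, the iron-sulphur subunit, ran from 1.73 to 2.41 (median 1.92) in progressive mares and from 1.60 to 2.27 (median 1.96) in brutal mares, a difference of -0.011 (SE 0.073). SDHC, a membrane anchor, ran from 1.55 to 2.13 (median 1.88) in progressive mares and from 1.46 to 2.10 (median 1.83) in brutal mares, a difference of 0.028 (SE 0.069). The groups overlapped over nearly their whole range in each, and the widest of the 3 intervals ran from -0.16 to 0.14.

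Complex III, which hands electrons from ubiquinol to cytochrome c, was read through 8 further subunits. After progressive weaning 7 of the 8 were lower, against 55.3% of all genes tested, with a median difference of -0.058. CYC1, the cytochrome c1 subunit, ran from 3.41 to 4.03 (median 3.62) in progressive mares and from 3.43 to 4.01 (median 3.68) in brutal mares, a difference of -0.024 (SE 0.065). UQCR11, a small accessory subunit, had the largest difference of the complex, -0.12 (SE 0.10), with medians of 3.77 in progressive and 3.92 in brutal mares. UQCRC2, a core subunit, differed by 0.00093 (SE 0.071). None of the 8 had an unadjusted p under 0.05.

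Complex IV, cytochrome c oxidase, has subunits that exist as isoforms of different tissues. The lung form COX4I2, the 1 gene of the complex that the pattern found, was well above background on 4 of 16 progressive and 2 of 16 brutal arrays and was not tested. The heart and muscle form COX6A2 reached that mark on 6 progressive and 7 brutal arrays, and COX7B2, a testis form in human, on 2 progressive and 1 brutal array. COX7A1, the muscle form of subunit 7A, was above background on all arrays. It ran from -2.42 to -0.89 (median -1.51) in progressive mares and from -2.24 to -0.92 (median -1.85) in brutal mares, a difference of 0.11 (SE 0.16).

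Of the forms found in most tissues, COX4I1 ran from 6.74 to 7.75 (median 7.07) in progressive mares and from 6.85 to 7.74 (median 7.11) in brutal mares, a difference of -0.051 (SE 0.092). NDUFA4, COX8A, COX8C and COX6B2 were not analysed here. COX6A1 differed by -0.047 (SE 0.087) and COX7A2 by -0.049 (SE 0.092). COX7A2L, which links complexes III and IV in supercomplexes, differed by 0.019 (SE 0.064). Of the 10 tested subunits of complex IV, 6 were lower after progressive weaning, against 55.3% of all genes tested, with a median of -0.047. COX6C, a small membrane subunit, had the largest SD of all subunits tested, 0.53. It ran from 3.50 to 5.65 (median 3.94) in progressive mares and from 3.65 to 5.54 (median 3.94) in brutal mares. Progressive mares 4 (5.29) and 14 (5.65) and brutal mare 14 (5.54) stood apart from the others, which reached at most 4.74.

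Complex V had 17 tested names, of which 12 were lower after progressive weaning, against 55.3% of all genes tested. The median difference was -0.041, and 0.013 under quantile normalisation. ATP5D ran from 0.77 to 1.85 (median 1.44) in progressive mares and from 1.04 to 2.03 (median 1.64) in brutal mares. It was lower on 4 of 4 slides, by -0.24, -0.066, -0.43 and -0.20. Its difference was -0.24 (SE 0.11, unadjusted p = 0.0366, limma adjusted p = 0.990), a ratio of 0.849, and it did not pass the threshold. The second probe of the gene, ATP5F1D, ran from 0.44 to 1.64 (median 1.16) in progressive mares and from 0.73 to 1.76 (median 1.36) in brutal mares, a difference of -0.21 (SE 0.10). The probes followed each other over the mares with a Pearson r of 0.96 (n = 32). The sign of ATP5D was negative under each of the 22 other settings tried, with differences from -0.43 to -0.054. Filters, eBayes options, slide and row blocks and probe rules could not change it, because the groups were balanced and ATP5D had 1 probe. The remaining settings reused the same arrays, so the count is not independent support.

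The other subunits of the head and central stalk were close to 0. ATP5A1 and ATP5B encode the alpha and beta subunits, between which ATP is made. ATP5A1 ran from 6.67 to 7.43 (median 6.96) in progressive mares and from 6.80 to 7.33 (median 7.03) in brutal mares, a difference of -0.080 (SE 0.070). ATP5B ran from 5.75 to 6.56 (median 5.96) in progressive mares and from 5.51 to 6.29 (median 6.07) in brutal mares, a difference of -0.026 (SE 0.075). ATP5E, the epsilon subunit of the central stalk, differed by -0.061 (SE 0.13). Its 15 probes included 5 that share no stretch of 15 bases with the brightest, and the lowest r between a probe and the brightest was 0.99.

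ATP5C1 is a case where the probe chosen sets the pattern. The custom probe, the brightest, ran from 2.43 to 3.29 (median 2.63) in progressive mares and from 2.28 to 3.11 (median 2.67) in brutal mares, a difference of 0.022 (SE 0.079). Catalogue probe 1 ran from -2.78 to -1.42 (median -2.43) in progressive mares and from -3.34 to -2.08 (median -2.47) in brutal mares, a difference of 0.12 (SE 0.11). Over the 32 mares the catalogue probes had a Pearson r of 0.89 with each other, and of -0.69 and -0.67 with the custom probe. The custom probe had an r of 0.91 with the mean of the other subunit genes, and the catalogue probes of -0.63 and -0.68. All 3 probes were above background on 32 arrays.

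Elsewhere the probes of a gene followed each other over the mares, though the size of the group difference could vary, as for NDUFA10 (-0.093 and -0.016). Of the 29 tested genes with further tested probes, 17 had only probes that overlap the brightest by at least 15 bases, which are not separate measures. Apart from ATP5C1, the lowest r between probes of 1 gene was 0.77, for ATP5A1. In 3 genes, ATP5J, NDUFA6 and NDUFB2, the probes differed in the sign of the group difference, all within 0.03 of 0.

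The c subunit of the rotor ring is made from 3 genes with the same mature product. ATP5G2 ran from 6.16 to 6.98 (median 6.59) in progressive mares and from 6.26 to 7.36 (median 6.64) in brutal mares, a difference of -0.15 (SE 0.10), lower on 4 of 4 slides. ATP5G1 ran from 4.85 to 5.90 (median 5.33) in progressive mares and from 4.95 to 5.90 (median 5.32) in brutal mares, a difference of -0.081 (SE 0.098). ATP5G3 ran from 4.56 to 5.59 (median 4.93) in progressive mares and from 4.77 to 5.50 (median 4.99) in brutal mares, a difference of -0.054 (SE 0.086). The 3 genes followed each other over the mares, with an r of 0.94 between ATP5G1 and ATP5G2, 0.85 between ATP5G1 and ATP5G3, and 0.75 between ATP5G2 and ATP5G3.

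Among the membrane subunits, ATP5L (subunit g) ran from 5.35 to 6.39 (median 5.69) in progressive mares and from 5.43 to 6.39 (median 5.85) in brutal mares, a difference of -0.13 (SE 0.099). ATP5J2 (subunit f) differed by -0.041 (SE 0.13), and ATP5H (subunit d of the side stalk) by -0.071 (SE 0.082). ATP5MK, a small accessory subunit not listed under its gene symbol, differed by -0.20 (SE 0.13). The 2 names that are not subunits went the other way: ATP5S differed by 0.085 (SE 0.12) and ATP5SL by 0.080 (SE 0.11). ATP5SL was the 1 tested gene of the 49 not above background on every array, with 15 progressive and 14 brutal arrays. Without these 2, the count was 42 of 47 lower, with a median of -0.042.

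The subunit genes differed between mares far more than between the groups, and they did so together. Over the 32 mares the median Pearson r between 2 of the 49 genes was 0.68 (1176 pairs), and 72.4% of the pairs had an r above 0.5. Over all pairs of the 14488 genes tested the median was 0.013, and 6.70% of the pairs had an r above 0.5. These r values are descriptions: the points share arrays, and every gene on an array was scaled by the same percentile. The median was 0.71 with the mean of each group on each slide removed, 0.71 within the progressive and 0.67 within the brutal mares, and 0.67 without progressive mare 16. Within slides 1 to 4 it was 0.77, 0.72, 0.79 and 0.64, over 8 arrays each. Part of it moved with the scaling: it was 0.58 with the percentile over probes detected on all arrays, 0.65 with normexp, 0.45 with quantile normalisation and 0.46 with the series table.

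**Figure D3:**
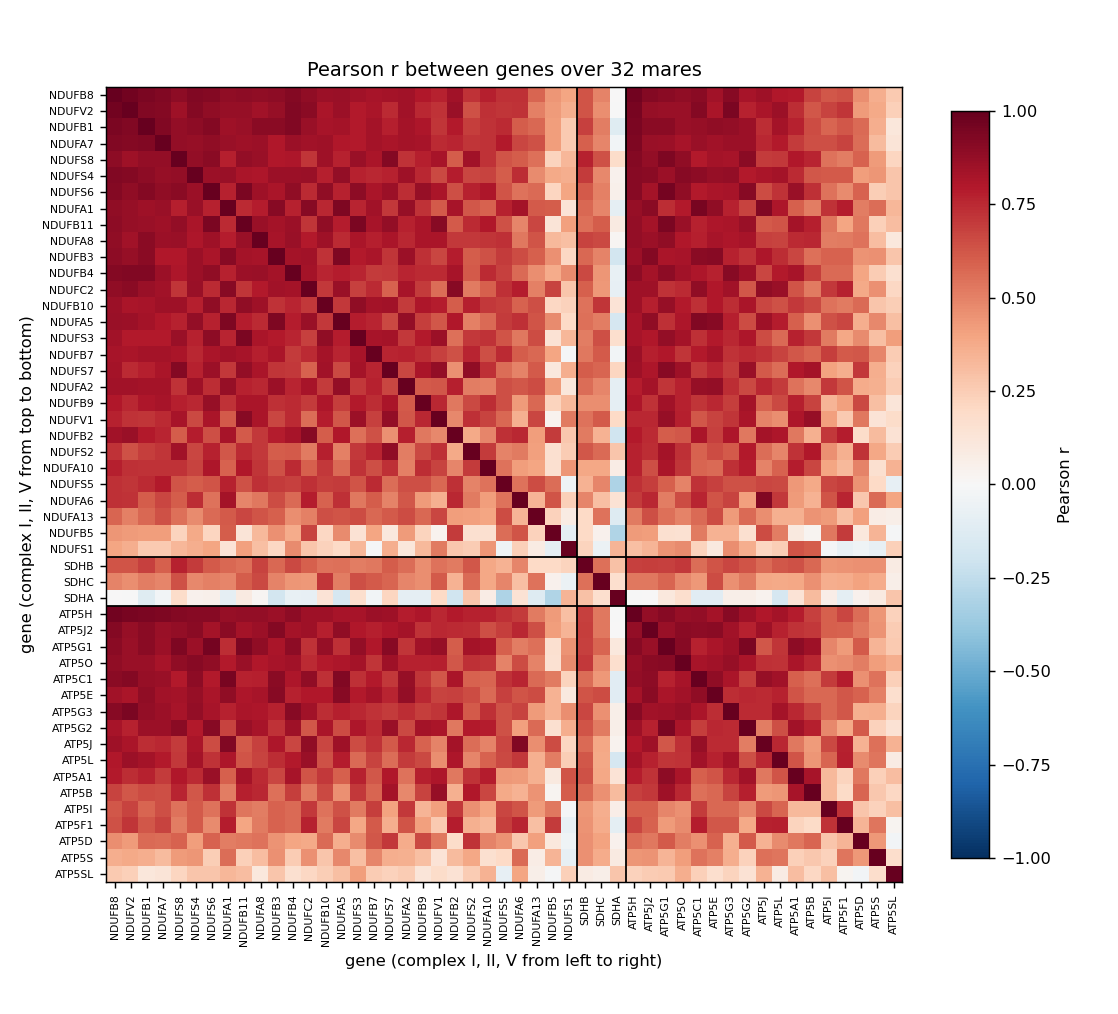
Pearson r over the 32 mares between each pair of the 49 tested genes, in colour from -1 to 1, ordered by complex (I, II, V, separated by black lines) and within a complex by the r with the other subunit genes. Complexes I and V form 1 block of high r, and SDHA, NDUFS1, NDUFB5, ATP5S and ATP5SL stand out as pale lines.

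The median r between complexes I and V lay between the medians within each. It was 0.75 within complex I, 0.62 within the 17 names of complex V, and 0.70 between a gene of complex I and 1 of the 17. Within the 15 subunits of complex V alone it was 0.72. Within complex II it was 0.29, and between complexes I and II 0.47. The 8 subunits of complex III had a median of 0.77 among themselves, and the 10 of complex IV 0.57. Of the 49 genes, 31 had an r above 0.8 with the mean of the others, and 5 had an r under 0.5. NDUFB8 (0.97), ATP5H (0.96) and NDUFV2 (0.95) were the highest. SDHA (0.035), ATP5SL (0.26) and NDUFS1 (0.32) were the lowest, and the remaining pair under 0.5 was NDUFB5 (0.39) and ATP5S (0.44). SDHA and NDUFS1 were also the genes with the smallest SD of the 49, 0.13 each.

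The further subunits, which had no part in the mean, followed it too. Their r with the mean of the 49 genes had a median of 0.90, with COX5B (0.96), COX6A1 (0.95) and UQCR10 (0.95) at the top. At the other end stood the muscle form COX7A1 (0.17), COX6C (0.41) and UQCRC2 (0.49). COX4I1 had an r of 0.89 and CYC1 of 0.93.

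As the median deviation of the 49 genes from their means, the level ran from -0.32 (mare 16) to 0.53 (mare 2) with a median of -0.046 in progressive mares. In brutal mares it ran from -0.27 (mare 10) to 0.42 (mare 12) with a median of -0.0064. The groups overlapped over most of that range, and its SD within a group was 0.22 in progressive and 0.19 in brutal mares.

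**Figure D4:**
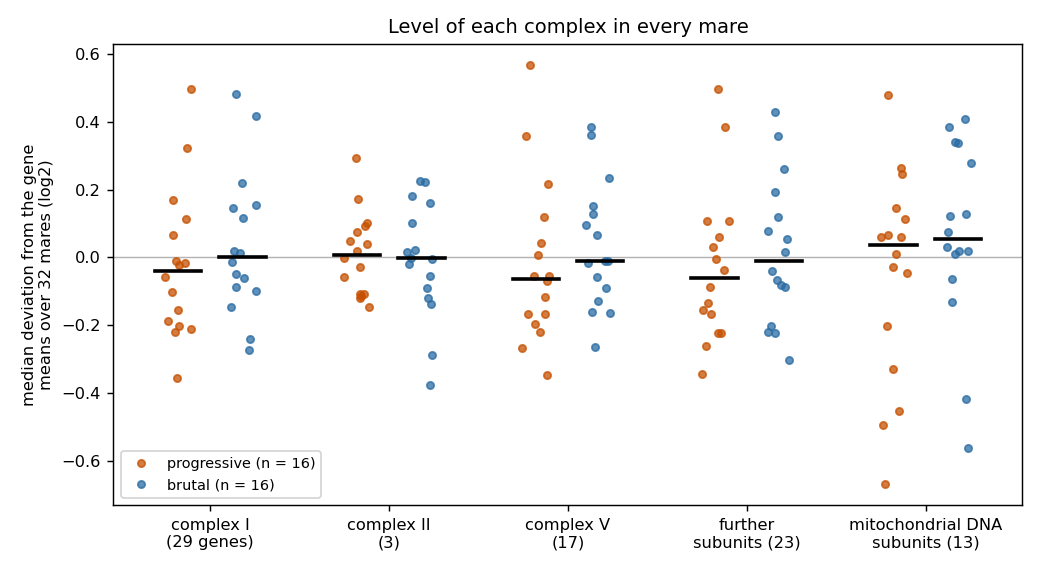
Level of each complex in every mare, as the median deviation of its genes from their means over the 32 mares (log2, vertical axis), for progressive (left of each pair) and brutal mares (right), with 16 points per group and a bar at the group median. The groups overlap in each of the 5 sets, and complex II spreads least.

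This level moved with the brightness of the array. Its r with the array's 75th percentile (log2) was -0.82 (Spearman's rank correlation -0.79, n = 32), and -0.75 without the 2 arrays farthest from the median percentile. It was -0.80 in progressive and -0.83 in brutal mares, and between -0.90 and -0.77 within the slides. The rank correlation within slides 1 to 4 was -0.62, -0.83, -0.52 and -0.50, over 8 arrays each. The percentile is the divisor of the scaling. With quantile normalisation, which does not use it, the r was -0.64, and with the series table -0.63. Of the 49 genes, 40 had an r below -0.5 with the percentile, and SDHA had an r of 0.21. The median percentile was 539.5 intensity units in progressive and 488.0 in brutal mares, and its part in the group difference was not tested.

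**Figure D5:**
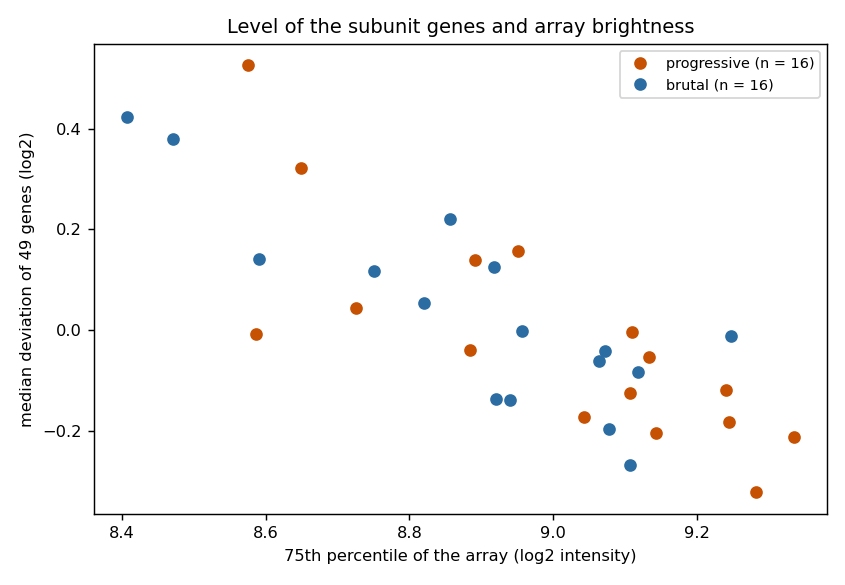
Median deviation of the 49 subunit genes (log2, vertical axis) against the 75th percentile of the array (log2 intensity, horizontal axis) for 16 progressive and 16 brutal mares. The points of both groups fall along 1 declining band, with an r of -0.82.

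Genes outside the mitochondrion followed the same pattern. The median deviation of 60 cytosolic ribosomal protein genes had an r of 0.94 with that of the subunit genes, and 0.81 with quantile normalisation. Of the 10 other genes with the highest r with the mean of the 49 (0.95 to 0.96 over 32 mares), COX5B and COX6A1 are subunits of complex IV. ROMO1 (a small protein of the mitochondrial inner membrane), HADH2 (a mitochondrial dehydrogenase) and a homolog of the assembly factor COX14 are mitochondrial. PSMB7 (a proteasome subunit), SEC61G (of the protein channel of the endoplasmic reticulum), TMEM147 and TMEM258 are not, and the top one is an unnamed lymphocyte cDNA. At the opposite end, chosen after the values were seen, MED13L (a Mediator subunit) had an r of -0.89 and SETD2 (a histone methyltransferase) of -0.88.

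The 13 subunits encoded in mitochondrial DNA were followed as a set of their own. Each was tested, and 13 of 13 were lower after progressive weaning, against 55.3% of all genes tested, with a median of -0.14. At an unadjusted p under 0.05 there were 0, against 2.55% of all genes tested. The direction of this set under the other scalings is not given here. ATP8, of ATP synthase, averaged 4.06 ± 0.32 in progressive and 4.27 ± 0.33 in brutal mares (SD, n = 16 each), a difference of -0.21 (SE 0.11). ND2, of complex I, averaged 2.29 ± 0.43 in progressive and 2.49 ± 0.30 in brutal mares (SD, n = 16 each), a difference of -0.20 (SE 0.13). Their median r with each other was 0.82, against 0.41 with single nuclear subunit genes, so the 13 signs are not separate observations. The r between the median deviations of the 2 sets was 0.53, and -0.016 with quantile normalisation. The set's median deviation overlapped between the groups, from -0.67 to 0.48 (median 0.035) in progressive and from -0.56 to 0.41 (median 0.053) in brutal mares.

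Genes around the chain were described by list, and none passed the threshold. Of all genes tested, 55.3% were lower after progressive weaning. Of 37 assembly factors tested, 19 were lower, 18 were higher and the median was -0.025. COX15 (haem A synthesis) differed by 0.38 (SE 0.13) and SCO2 (copper delivery to complex IV) by -0.16 (SE 0.078), the 2 with the smallest p. They were the 2 of 37 under an unadjusted limma p of 0.05, against 2.55% of all genes tested. Of 15 regulators of mitochondrial gene expression, 9 were lower, with a median of -0.026. The 2 with the smallest p were TFB1M (a mitochondrial ribosomal RNA methyltransferase) at -0.11 (SE 0.081) and PPARGC1B (a coactivator of mitochondrial genes) at -0.19 (SE 0.16). Of 12 enzymes of the tricarboxylic acid cycle, 7 were lower, with SUCLA2 (a succinyl-CoA ligase subunit) at 0.081 (SE 0.070) and CS (citrate synthase) at -0.10 (SE 0.091). Of 10 genes for cytochrome c, carriers and porins, 5 were lower, with SLC25A3 (the phosphate carrier) at -0.055 (SE 0.069) and VDAC1 (a porin) at 0.055 (SE 0.076). The r with the subunit genes' median deviation was 0.93 for the assembly factors, 0.92 for carriers and porins, 0.75 for the cycle and 0.20 for the regulators.

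Markers of blood cells were set beside the subunits, as the mean level of a list per mare. Of all genes tested, 55.3% were lower and 2.55% had an unadjusted limma p under 0.05. Under that p were 4 of 8 platelet, 2 of 5 erythroid, 2 of 15 neutrophil, 2 of 7 monocyte and 1 of 8 NK and cytotoxic genes. The other marker lists had 0, and no marker passed the adjusted threshold. The platelet list (8 of 13 tested, 8 of 8 lower) ran from -1.78 to 0.13 in progressive and from -0.94 to 0.49 in brutal mares, with F13A1 at -0.77 (SE 0.28) and PF4 at -0.37 (SE 0.16). The erythroid list (5 of 19 tested, 5 of 5 lower) ran from -0.14 to 2.14 in progressive and from 0.13 to 2.86 in brutal mares, with SELENBP1 at -0.47 (SE 0.16) and AHSP at -0.97 (SE 0.42). Its membrane protein SLC4A1 was not tested because its probe did not stand well above background. The neutrophil list (15 of 16 tested, 14 of 15 lower) ran from 0.86 to 2.42 in progressive and from 1.03 to 2.44 in brutal mares, with LTF at -0.92 (SE 0.34) and NCF1 at -0.30 (SE 0.15). These lists lay lower in progressive mares, as the subunit genes did, and their part in that direction was not tested. The composition covariates given above are scores from the same arrays under the same scaling, so they cannot tell blood composition from array brightness.

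Of the other lists, the NK and cytotoxic list also lay lower, with a median difference of -0.19, against -0.24 for the neutrophil list. The medians of the rest ran from -0.092 (basophil and eosinophil) to 0.017 (B cell). The T cell list (14 of 14 tested, 6 lower) ran from 1.62 to 2.49 in progressive and from 1.59 to 2.45 in brutal mares, with LEF1 at 0.19 (SE 0.13) and CCR7 at 0.15 (SE 0.13). The B cell list (8 of 8 tested, 3 lower) ran from -0.70 to 0.66 in progressive and from -0.84 to 0.61 in brutal mares, with PAX5 at 0.33 (SE 0.22) and CD22 at -0.16 (SE 0.19). The NK and cytotoxic list (8 of 8 tested, 6 lower) ran from 1.07 to 2.37 in progressive and from 1.24 to 2.48 in brutal mares, with KLRB1 at -0.50 (SE 0.21) and PRF1 at -0.23 (SE 0.15). The monocyte list (7 of 8 tested, 4 lower) ran from 1.55 to 2.93 in progressive and from 1.24 to 2.90 in brutal mares, with CCR2 at -0.36 (SE 0.14) and LYZ at -0.29 (SE 0.14). The basophil and eosinophil list had 3 of 9 genes tested, with FCER1A at -0.10 (SE 0.29) and CCR3 at -0.092 (SE 0.28). Of the muscle list 2 of 9 were tested, CKM at -0.094 (SE 0.14) and ACTA1 at -0.052 (SE 0.10), while the myosins MYH7 and MYH2 were not above background. Over the mares, the r between a list's median deviation and that of the subunit genes was 0.72 for the 2 tested muscle genes, 0.51 for NK and cytotoxic, 0.47 for T cell, 0.43 for erythroid, 0.35 for platelet, 0.052 for B cell, 0.074 for basophil and eosinophil, -0.065 for neutrophil and -0.075 for monocyte markers.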

How the data were processed

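An intensity was deposited for every spot of each array, background-subtracted by Agilent Feature Extraction 10.10.1.1 per the file headers. The submitters' processing notes name the same tool. The deposited series table holds log2 values, used as an alternative, and the sources used here do not say how the authors normalised it. Control spots (1319 of 62976) and 2483 outlier spots were left out. Log2 processed signals minus the array's 75th percentile were averaged per probe, the brightest of the probes of a gene name was kept, and 14488 of 24518 names passed the filter (well above background on at least 8 arrays of a group). Limma 3.58.1 in R 4.3.3 (lmFit, eBayes, group as the only term, two-sided) gave differences, SE and 95% intervals, and was tested on simulated data. The number of arrays limits the precision. Python 3.11.15 with numpy 2.4.6, pandas 2.3.3, scipy 1.17.1 and matplotlib 3.10.9 gave the rest. Of the 164 probes, 143 matched the RefSeq table.

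Named genes followed a rule: per complex the 3 smallest p and the largest and smallest SD, and all of complex II. It added the 3 highest and lowest r with the other subunits, fixed isoforms, and head, central stalk and ring subunits. The 10 other genes with the highest r and 2 genes per list completed it. Other genes were picked with their values in view. The subunits, lists and tests were chosen with earlier results of these data known. Alternatives were 4 other scalings, slide and row blocks, each slide alone or left out, progressive mare 16 left out, other filters, composition covariates (neutrophil, T cell, erythroid and platelet scores), eBayes options, array weights, other probe rules and an adjusted p of 0.10.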

Additional observations from a re-analysis of the deposited data

How the results depend on the processing

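No paired analysis was possible because the labels tie no progressive mare to a brutal one. Over the 22 settings other than the threshold, 0 of the subunit genes and 0 of all genes were called by limma in each, as with an adjusted p under 0.10. At an unadjusted p under 0.05 there were 0 or 1 subunit genes, and 169 to 654 of all genes. The count of subunit genes lower after progressive weaning ran from 15 to 42, and by over 1.5 times it moved to 23 with quantile normalisation, 27 with the values of the series table, 15 on slide 1 alone and 24 with composition covariates; the cause was not tested. The median difference ran from -0.12 to 0.038, at or above 0 in 3 settings. The median r between subunit genes ran from 0.45 to 0.71 over the other scalings, the removal of slide and group means and the array left out, alternatives added after the data were seen.

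Of the 22 named subunit genes, ATP5D and ATP5G2 kept 1 sign in every setting, and no sign below belongs to a called difference. Both had 1 probe under their names, so filters, eBayes options, slide and row blocks and probe rules could not change either sign. With quantile normalisation the sign turned for ATP5A1 (0.0052), ATP5B (0.054), ATP5E (0.028), ATP5G3 (0.013), ATP5H (0.0099), NDUFB8 (0.014), NDUFS1 (0.0034), NDUFV2 (0.033) and SDHB (0.0081). With the series table it turned for ATP5A1 (0.0039), ATP5B (0.050), ATP5E (0.024), ATP5G3 (0.018), NDUFB8 (0.0081), NDUFV2 (0.024) and SDHB (0.0065). With the percentile over probes detected on all arrays it turned for NDUFS1 (0.011) and SDHB (0.010), and with normexp for ATP5SL (-0.015). With composition covariates it turned for ATP5B (0.042), ATP5E (0.060), ATP5G1 (0.0099), ATP5J2 (0.025), ATP5SL (-0.037), NDUFA5 (0.0086), NDUFV2 (0.0013) and SDHB (0.0082). With array weights it turned for SDHA (-0.016). On slide 1 alone it turned for ATP5A1 (0.12), ATP5B (0.059), ATP5G1 (0.071), ATP5G3 (0.12), ATP5H (0.050), ATP5L (0.030), NDUFA10 (0.094), NDUFB8 (0.090), NDUFB9 (0.048), NDUFS1 (0.076), NDUFS6 (0.019), NDUFV2 (0.080), SDHA (-0.0074) and SDHB (0.071). On slide 2 alone it turned for ATP5E (0.036), NDUFA5 (0.045) and NDUFV2 (0.013), on slide 3 alone for ATP5C1 (-0.014) and NDUFS1 (0.025), and on slide 4 alone for ATP5SL (-0.13) and SDHC (-0.12). Left out in turn, slide 2 turned NDUFS1 (0.010) and SDHB (0.00054), slide 3 turned SDHB (0.0029), and slide 4 turned NDUFS1 (0.0098) and NDUFV2 (0.0035). Without progressive mare 16 it turned for SDHB (0.0045). Signal over background limits COX4I2, COX6A2 and COX7B2, which have no tested value.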
